A study of Mus musculus with 6 samples.

Results

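The genes described are 36 aminoacyl-tRNA synthetases, the enzymes that join each amino acid to its transfer RNA (tRNA) before protein synthesis. They were chosen by name from the 54532 genes of a deposited expression table, 20 as enzymes of the cytosol and 16, with names ending in 2, as enzymes of the mitochondrion. The table came from RNA sequencing of mouse bone marrow-derived macrophages (BMDMs), grown from the marrow of C57BL/6 mice and kept in co-culture with the mouse ovarian cancer line ID8. Before contact, the tumour cells received 40 µM cisplatin (3 libraries), a DNA-crosslinking platinum compound, or phosphate-buffered saline, PBS (3 libraries), and poly-T selected RNA was sequenced in all 6. The comparison asked how BMDM cultures differed after contact with cisplatin-treated rather than PBS-treated tumour cells. Values are FPKM, read counts divided by gene length and by library depth, so that levels of different genes are compared per length.

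Each synthetase recognises an amino acid and the tRNAs that carry it, and uses ATP to link them. Cytosolic enzymes supply the ribosomes that read nuclear messages. Mitochondrial enzymes, which are encoded in the nucleus and imported, supply the ribosomes that make the few proteins of the mitochondrial genome. Kars and Gars, counted here as cytosolic, each encode forms for both compartments. The enzymes fall into class I and class II by the fold of their catalytic domain. In animals several cytosolic enzymes sit together in a multisynthetase complex on scaffold proteins. Many cytosolic synthetase genes are also known targets of the amino acid response, the transcriptional programme of the factor ATF4 that is switched on when amino acids run short or the endoplasmic reticulum is stressed.

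The reads recovered from the FPKM values summed to between 15776238 and 17924686 per library. All 36 synthetases were among the 13441 genes tested (FPKM of at least 1 in at least 3 libraries), and a library held between 84 and 4881 reads of each. ID8 and macrophage genes differed widely between the groups. Of 10 ID8 and mesothelial markers, 7 were lower in every cisplatin library than in every PBS library, and their summed level was 998 to 1074 FPKM with PBS and 177 to 191 FPKM with cisplatin. All 10 macrophage markers were higher in every cisplatin library (sum 1637 to 1648 FPKM against 4202 to 4357 FPKM). Most of that sum was Lyz2 (means of 1161 and 3459 FPKM), and single ratios of means ran from 1.15 for Cd68 to 15.2 for Mrc1. Also higher in every cisplatin library were 5 of 8 lymphocyte markers (113 to 121 FPKM against 267 to 273 FPKM) and all 4 Y-linked genes listed (19.5 to 22.7 FPKM against 41.6 to 42.8 FPKM). No marker of these lists was at 0 in all libraries. These levels moved with every result given here and their part in the results was not tested. In RNA from mixed cultures, a change in the number of cells of a type and a change in RNA per cell cannot be told apart.

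Most synthetase genes shifted by less than 2-fold, and more rose than fell. At an adjusted p under 0.05 (limma with a trended variance on log2(FPKM + 1), Benjamini-Hochberg over all 13441 genes), 18 of 36 were higher in the cisplatin libraries (50%, beside 32.9% of all tested genes) and 5 were lower (13.9%, beside 35.1%). The other 13 did not pass. With the further requirement of a 2-fold change, 0 of 36 were called in either direction, beside 4.67% of all tested genes called higher and 11.3% called lower. limma voom on the recovered reads called 2 of them higher, Lars2 and Mars2, beside 9.13% of all tested genes called higher and 13.9% lower in that fit. At an unadjusted p under 0.05 the same 18 were higher and the same 5 lower. Ranges of the 3 cisplatin and 3 PBS libraries were separate for 21 synthetases that were higher (35.2% of all tested genes) and for 7 that were lower (37.2%). The median log2 fold change was 0.20 for the cytosolic genes and 0.19 for the mitochondrial genes, beside a median of -0.0011 over all tested genes. With libraries scaled to the 4 Y-linked genes, which lowered the median of all tested genes to -0.83, the 2 medians became -0.77 and -0.59 and 0 synthetases were higher at an adjusted p under 0.05 (3.71% of all tested genes higher and 82.6% lower under that scaling), so the direction of the family depends on the scaling.

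**Figure D1:**
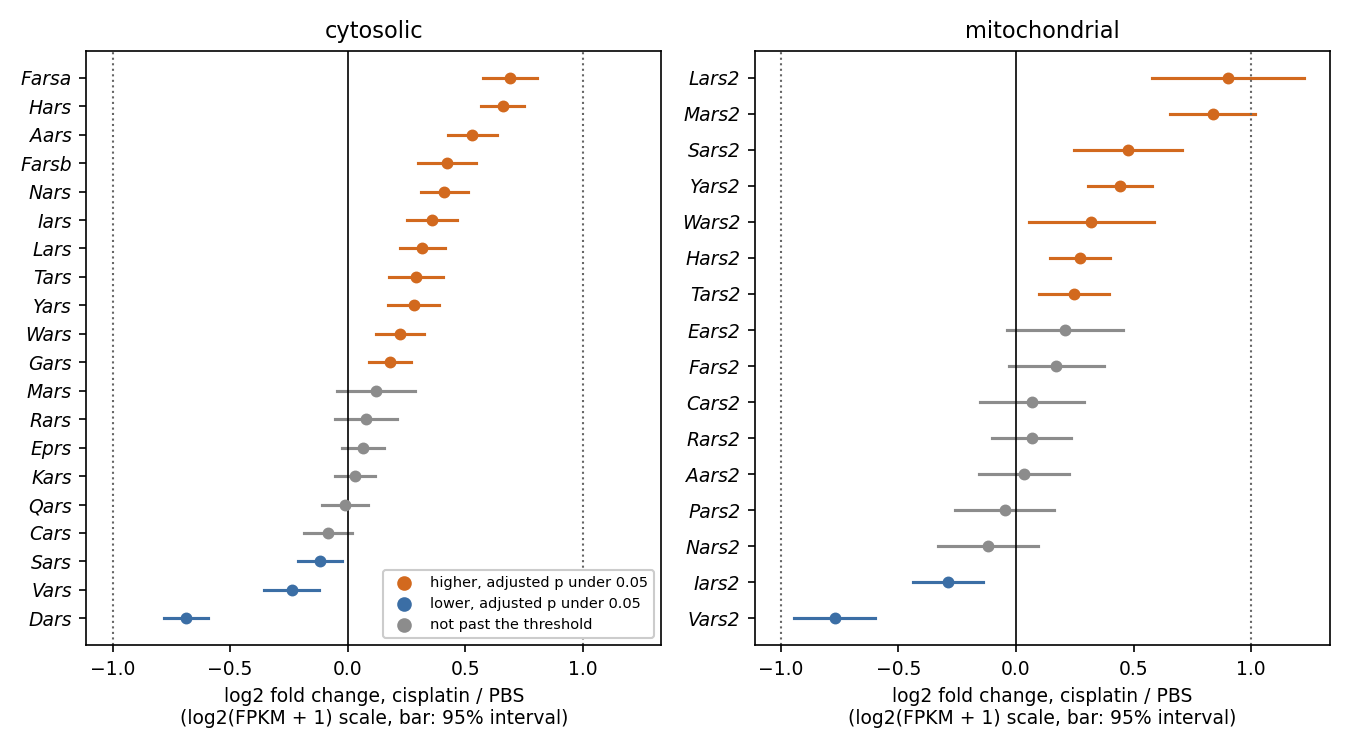
Log2 fold change (cisplatin against PBS, log2(FPKM + 1) scale) of the 20 cytosolic and 16 mitochondrial synthetase genes, with its 95% interval from limma. Colour marks an adjusted p under 0.05, dotted lines mark 2-fold, and the estimates run from -0.77 for Vars2 to 0.90 for Lars2, with values that turn negative for 26 genes when libraries are scaled to Y-linked genes.

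Among the cytosolic enzymes 11 of 20 rose, 3 fell and 6 did not pass the test at the scaling of the deposited FPKM (32.9% of all tested genes higher and 35.1% lower), while 0 rose and all 20 fell with scaling to the Y-linked genes, under which 82.6% of all tested genes fell. Per length, the most abundant was Nars (asparagine) in both groups, with means of 75.3 and 100.5 FPKM. It was followed by Gars (glycine), and the lowest were Farsa and Yars with PBS and Yars and Cars with cisplatin. The order changed in the middle. Dars (aspartate) went from the 6th highest of the 36 genes with PBS to the 15th with cisplatin, and Hars (histidine) from the 9th to the 3rd. Neighbours in this order often lay within the spread of their libraries, as with Mars, whose PBS libraries spanned 24.8 to 28.7 FPKM, and Hars, whose PBS libraries spanned 24.1 to 25.9 FPKM.

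**Figure D2:**
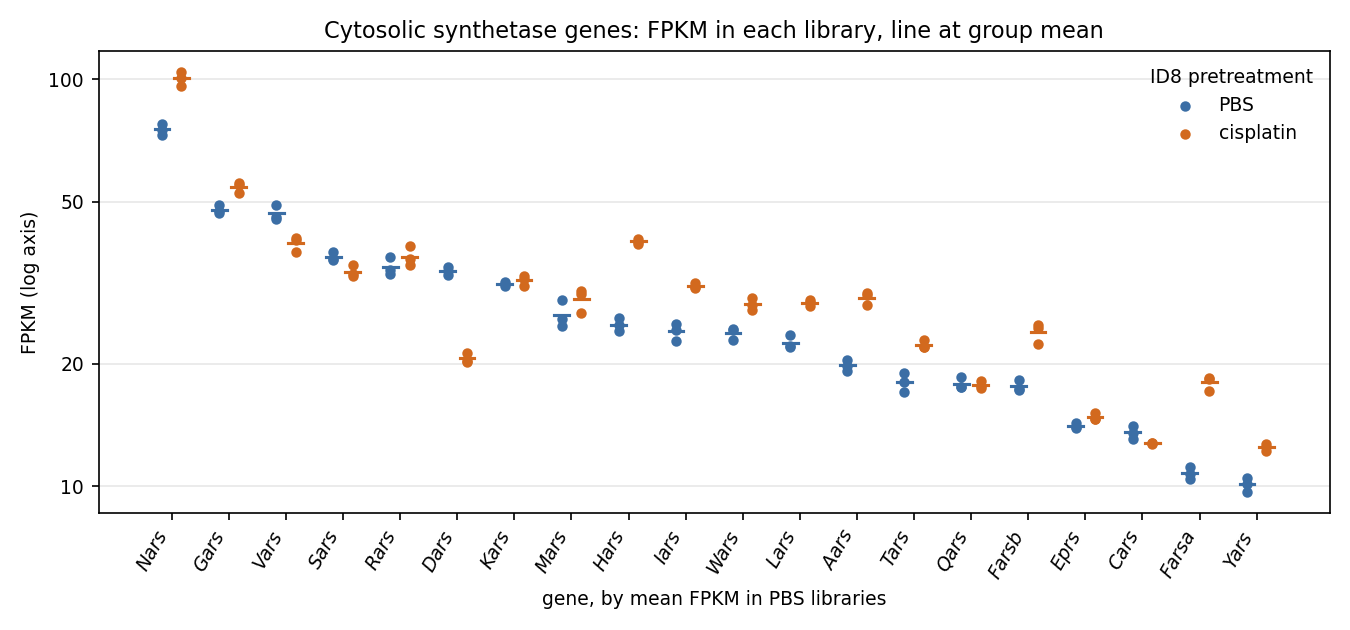
FPKM (log axis) of the 20 cytosolic synthetase genes in each of 3 PBS and 3 cisplatin libraries, with lines at the group means and genes ordered by their PBS mean. Hars and Farsa stand above, and Dars below, their PBS values in every cisplatin library, at the scaling of the deposited FPKM.

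The largest cytosolic rise was in Farsa, the catalytic subunit of phenylalanyl-tRNA synthetase (chromosome 8, 84856989 to 84869257, GRCm38). Farsa stood at 11.2, 10.4 and 10.7 FPKM in PBS replicates 1 to 3 and at 17.2, 18.5 and 18.4 FPKM in cisplatin replicates 1 to 3. All cisplatin libraries lay above all PBS libraries. The log2 fold change was 0.69 (SE 0.048, adjusted p = 1.9e-05, limma). Farsb, which encodes the other subunit of the same enzyme, rose less, from 17.6 ± 0.544 to 23.9 ± 1.35 FPKM (SD, n = 3 libraries, log2 fold change 0.42). The ratio of Farsb to Farsa was 1.55, 1.75 and 1.60 in the PBS libraries and 1.45, 1.33 and 1.22 in the cisplatin libraries, so the 2 groups did not overlap. Of the exon bases of Farsb, 9.47% are shared with Sgpp2 on the other strand, and whether reads were counted by strand is not stated.

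Hars, histidyl-tRNA synthetase, was the next to rise. Its level was 24.9, 24.1 and 25.9 FPKM with PBS and 39.4, 40.5 and 39.9 FPKM with cisplatin, groups that were far apart for their spread. Its log2 fold change was 0.66 (SE 0.039, adjusted p = 7.9e-06, limma). Hars lies head to head with Hars2, the gene of the mitochondrial histidine enzyme, on chromosome 18, and the 2 annotated genes overlap by 198 bases. Hars2 rose too, from 6.14 ± 0.286 to 7.62 ± 0.250 FPKM (SD, n = 3, log2 fold change 0.27, adjusted p = 0.0032, limma).

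Aars, alanyl-tRNA synthetase (chromosome 8, 111033144 to 111057664), stood at 19.8, 19.2 and 20.5 FPKM with PBS and at 27.9, 29.8 and 29.5 FPKM with cisplatin. The groups did not overlap, and the log2 fold change was 0.53 (SE 0.044, adjusted p = 4.3e-05, limma). Of its exon bases 15.1% are shared with other annotated genes, Exosc6 and Gm24103, mostly on the same strand. The other cytosolic rises at an adjusted p under 0.05 were smaller. They were Nars (log2 fold change 0.41), Iars for isoleucine (0.36), Lars for leucine (0.32), Tars for threonine (0.29), Yars for tyrosine (0.28), Wars for tryptophan (0.22) and Gars (0.18). All of these were separate between the groups.

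Dars, aspartyl-tRNA synthetase (chromosome 1, 128363707 to 128417368), showed the largest cytosolic fall. It stood at 33.0, 33.8 and 34.6 FPKM with PBS and at 21.3, 20.2 and 20.3 FPKM with cisplatin. Every cisplatin library lay below every PBS library, and the log2 fold change was -0.69 (SE 0.039, adjusted p = 6.5e-06, limma). Dars kept this direction under every scaling and with each library left out. Vars, valyl-tRNA synthetase (chromosome 17, 35000987 to 35016322), was at 49.2, 45.3 and 46.0 FPKM with PBS and at 37.6, 40.3 and 40.7 FPKM with cisplatin, again without overlap. Its log2 fold change was -0.24 (SE 0.048, adjusted p = 0.0038, limma). Sars, seryl-tRNA synthetase (chromosome 3, 108424865 to 108445209), went from 37.6, 36.2 and 35.9 FPKM to 33.2, 34.9 and 32.9 FPKM, which is separate but close. The fall in Sars was the smallest that passed (log2 fold change -0.12, SE 0.039, adjusted p = 0.033, limma), and it no longer passed without any of 5 of the 6 libraries (adjusted p between 0.053 and 0.11 in those fits). Nor did Sars pass with no filter (adjusted p = 0.051, limma), after quantile normalisation (-0.038, adjusted p = 0.43) or in limma voom (-0.034, adjusted p = 0.52).

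The 6 cytosolic genes that did not pass were Mars (methionine), Rars (arginine), Eprs (glutamate and proline), Kars (lysine), Qars (glutamine) and Cars (cysteine), with log2 fold changes from -0.083 for Cars to 0.12 for Mars. Of these, Mars, Rars, Kars and Qars overlapped between the groups. Eprs was separate and higher, with means of 14.1 and 14.8 FPKM, and Cars separate and lower, with means of 13.6 and 12.7 FPKM. The 95% interval of Kars ran from -0.055 to 0.12 and that of Qars from -0.11 to 0.088. In limma voom on recovered reads Eprs, Kars, Mars and Rars passed as higher (log2 fold change 0.12 to 0.21), and so did Eprs (0.12) and Mars (0.18) after quantile normalisation.

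Among the mitochondrial enzymes 7 of 16 rose, 2 fell and 7 did not pass the test at the scaling of the deposited FPKM (32.9% of all tested genes higher and 35.1% lower), while 0 rose and 13 fell with scaling to the Y-linked genes, a share near the 82.6% of all tested genes that fell there. Most had lower levels than the cytosolic enzymes, but Iars2 with PBS lay above Yars, and Lars2 with cisplatin above Eprs, Cars and Yars. Iars2 was the most abundant with PBS (10.7 FPKM) and Lars2 with cisplatin (15.02 FPKM). At the low end, Wars2, Ears2, Mars2, Nars2, Fars2 and Pars2 all had PBS means under 2 FPKM. The lowest library of Ears2, and likewise of Pars2, held 84 reads, while no cytosolic gene had fewer than 699 reads in a library. Counting error relative to the level is therefore larger for Ears2 and Pars2 than for the cytosolic genes.

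**Figure D3:**
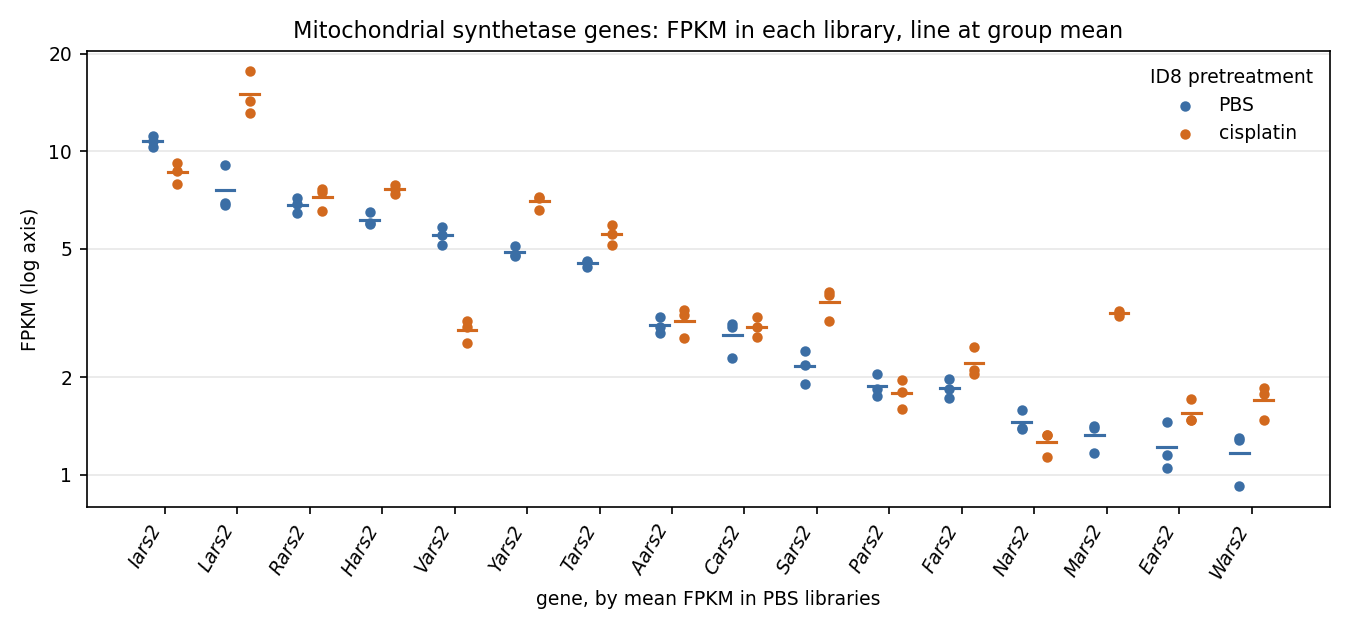
FPKM (log axis) of the 16 mitochondrial synthetase genes in each of 3 PBS and 3 cisplatin libraries, with lines at the group means and genes ordered by their PBS mean. Lars2 and Mars2 stand above, and Vars2 below, their PBS values in every cisplatin library, at the scaling of the deposited FPKM.

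Lars2, the mitochondrial leucine enzyme (chromosome 9, 123366927 to 123462666), had the largest rise of all 36 genes on the log2(FPKM + 1) scale, while by the ratio of means Mars2 rose more (2.37 against 1.98). Its level was 6.80, 6.90 and 9.05 FPKM in PBS replicates 1 to 3 and 13.1, 14.3 and 17.6 FPKM in cisplatin replicates 1 to 3. The groups did not overlap, but the spread within each was wide, with replicate 3 the highest of both. The log2 fold change was 0.90 (SE 0.14, adjusted p = 9.0e-04, limma), and it was 1.02 without PBS replicate 3, which is past 2-fold. Some RNAs that are not protein-coding, chosen after their values were seen, moved with it. The ribosomal RNA gene CT010467.1 stood at 56.2, 36.8 and 62.8 FPKM with PBS and at 68.9, 101.1 and 117.7 FPKM with cisplatin. Gm23935, an annotated miRNA gene, stood at 3813, 3283 and 4808 FPKM and at 6231, 7206 and 8584 FPKM. Gm26917, an annotated lincRNA, was at 35.2 to 44.8 FPKM with PBS and at 514 to 595 FPKM with cisplatin. Like Lars2, CT010467.1 and Gm23935 were highest in replicate 3 of each group. Gm26917 was highest in replicate 1 with PBS and in replicate 2 with cisplatin. The mitochondrial ribosomal RNA mt-Rnr2 was highest in replicate 3 with PBS (511, 532 and 543 FPKM) but in replicate 1 with cisplatin (1011, 881 and 897 FPKM), and whether residual ribosomal RNA bears on the level of Lars2 was not tested.

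Mars2, the mitochondrial methionine enzyme (chromosome 1, 55237177 to 55248470), stood at 1.41, 1.40 and 1.17 FPKM with PBS and at 3.16, 3.08 and 3.21 FPKM with cisplatin. The 2 groups were far apart, with a ratio of means of 2.37. On the log2(FPKM + 1) scale, which understates changes at low levels, its log2 fold change was 0.84 (SE 0.076, adjusted p = 7.1e-05, limma). It passed 2-fold with a pseudocount of 0.1 (1.19), after rescaling to TPM (1.08) and in limma voom on recovered reads (1.33). Sars2, the mitochondrial serine enzyme (chromosome 7, 28741992 to 28753871), was at 2.40, 2.19 and 1.91 FPKM with PBS and at 2.98, 3.58 and 3.67 FPKM with cisplatin. These groups did not overlap either, and the log2 fold change was 0.48 (SE 0.096, adjusted p = 0.0038, limma). Smaller rises were found for Yars2 (tyrosine, 0.44), Wars2 (tryptophan, 0.32), Hars2 (0.27) and Tars2 (threonine, 0.24). That of Wars2 (adjusted p = 0.038, limma) no longer passed without PBS replicate 3, cisplatin replicate 1 or cisplatin replicate 2 (adjusted p = 0.099, 0.099 and 0.12 in those fits), nor with no filter on low values (adjusted p = 0.12).

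Vars2, the mitochondrial valine enzyme (chromosome 17, 35655634 to 35667592), fell furthest of all 36 genes at the deposited scaling, and Dars (-1.65, against -1.55 for Vars2) with scaling to the Y-linked genes. It stood at 5.82, 5.14 and 5.50 FPKM with PBS and at 2.55, 2.87 and 2.98 FPKM with cisplatin. No library of one group reached the other, and the log2 fold change was -0.77 (SE 0.072, adjusted p = 8.1e-05, limma). Vars and Vars2 both fell, and they lie 639311 bases apart on chromosome 17. Iars2, the mitochondrial isoleucine enzyme (chromosome 1, 185284726 to 185329396), went from 10.3, 11.1 and 10.7 FPKM to 9.18, 7.91 and 8.70 FPKM, without overlap (log2 fold change -0.29, SE 0.063, adjusted p = 0.0055, limma). Of its exon bases 24.2% are shared with genes on the other strand, Rab3gap2 and 2010103J01Rik.

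The 7 mitochondrial genes that did not pass were Ears2 (glutamate), Fars2 (phenylalanine), Cars2 (cysteine), Rars2 (arginine), Aars2 (alanine), Pars2 (proline) and Nars2 (asparagine), with log2 fold changes from -0.12 for Nars2 to 0.21 for Ears2. Ears2 and Fars2 were higher in every cisplatin library and Nars2 lower in every one, and the other 4 overlapped. The interval of Ears2 ran from -0.040 to 0.45. Ears2 and Fars2 passed as higher in limma voom (0.44 and 0.34) and after quantile normalisation (0.31 for both).

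For 13 amino acids a cytosolic gene was paired with the mitochondrial gene of the same name, and the ratio of the 2 within a library is not changed by a scaling factor common to all genes of that library. Phenylalanine, glutamate and proline, whose cytosolic enzymes are made of subunits or fused, were left out of these ratios. The ratio of cytosolic to mitochondrial FPKM was higher in every cisplatin library for 5 pairs, lower in every one for 4, and overlapped for 4. Of single tested genes, 35.2% and 37.2% were separate in the same 2 directions. With 3 libraries against 3 an exact permutation test (two-sided) cannot go below p = 0.1, so these are given as values. Iars over Iars2 went from 2.24 ± 0.028 to 3.63 ± 0.28 (SD, n = 3 libraries). Vars over Vars2 went from 8.54 ± 0.25 to 14.1 ± 0.55, although both genes fell. Aars over Aars2, Hars over Hars2 and Nars over Nars2 were the other ratios that were higher with cisplatin.

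In the opposite direction, Mars over Mars2 went from 20.2 ± 3.77 to 9.15 ± 0.623 (SD, n = 3 libraries). Sars over Sars2 went from 17.0 ± 1.65 to 9.94 ± 1.10, with the cytosolic gene lower and the mitochondrial gene higher. Lars over Lars2 and Yars over Yars2 were lower too, with both genes of each pair higher and the mitochondrial one more so. The pairs for cysteine, arginine, threonine and tryptophan overlapped. Summed over genes, the mitochondrial enzymes made up 10.1% to 10.4% of synthetase FPKM with PBS and 10.3% to 11.1% with cisplatin, ranges that overlap. Without Lars2 the share was 9.04% to 9.28% with PBS and 8.58% to 8.84% with cisplatin, so that every cisplatin library lay below every PBS library.

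**Figure D4:**
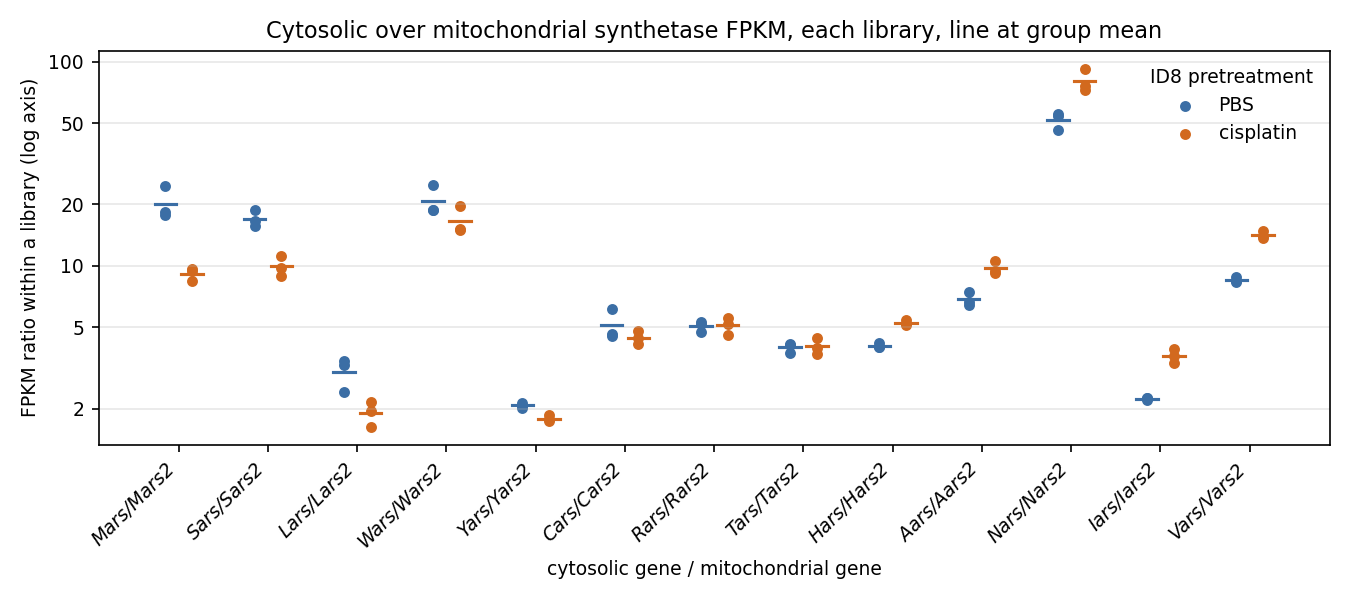
Ratio of cytosolic to mitochondrial synthetase FPKM within each library (log axis) for the 13 pairs of genes with the same name, with lines at the group means of 3 PBS and 3 cisplatin libraries. Pairs are ordered by the change of the mean, from Mars/Mars2 (20.2 to 9.15) to Vars/Vars2 (8.54 to 14.1).

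By structural class, 8 of 18 class I genes rose and 3 fell (median log2 fold change 0.16), and 10 of 17 class II genes rose and 2 fell (median 0.24), beside 32.9% of all tested genes higher and 35.1% lower. Eprs, a fusion with a domain of each class, was counted in neither. No test of the difference between the classes was made, and with scaling to the Y-linked genes no gene of either class rose. Of the 8 enzymes of the multisynthetase complex, only Iars and Lars rose and only Dars fell at the deposited scaling (median 0.072), while all 8 fell with scaling to the Y-linked genes, as did 82.6% of all tested genes.

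The 3 scaffold proteins of that complex moved apart. Eef1e1, also known as Aimp3, was the one gene of the complex past both thresholds, from 5.53 ± 0.384 to 12.4 ± 0.600 FPKM (SD, n = 3, log2 fold change 1.04, adjusted p = 9.1e-06, limma). Aimp2 fell from 14.1 ± 1.18 to 10.4 ± 1.42 FPKM (log2 fold change -0.41, adjusted p = 0.011, limma). Aimp1 did not pass (-0.079, adjusted p = 0.34, limma). Without PBS replicate 2 the change of Eef1e1 was just under 2-fold (log2 fold change 0.99). With scaling to the Y-linked genes Eef1e1 did not pass (0.15, adjusted p = 0.16, limma), and Aimp1 (-0.97) and Aimp2 (-1.32) fell.

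Of the 13 cytosolic synthetases listed as targets of the amino acid response, 8 rose (Aars, Gars, Iars, Lars, Nars, Tars, Wars and Yars) and 2 fell (Sars and Vars), with a median log2 fold change of 0.22, beside 32.9% of all tested genes higher and 35.1% lower. With scaling to the Y-linked genes none of these rose. The 13 other genes of the amino acid response moved over a wider range, with 8 higher, 2 lower and 3 that did not pass beside the same shares of all genes (median 0.33, and -0.50 with scaling to the Y-linked genes). Past both thresholds were Slc7a11, the cystine and glutamate exchanger (29.3 ± 1.71 to 125.4 ± 4.30 FPKM, SD, n = 3, log2 fold change 2.06), the transcription factor Atf5 (11 ± 0.0606 to 37.0 ± 0.282 FPKM, 1.66) and Slc3a2, the partner chain of amino acid transporters (58.3 ± 1.59 to 152 ± 7.07 FPKM, 1.37). With scaling to the Y-linked genes only Slc7a11 of these stayed past 2-fold (1.08, beside 0.71 for Atf5 and 0.38 for Slc3a2), and of the list 3 rose and 8 fell. At the deposited scaling the 2 that fell were Trib3, a pseudokinase (log2 fold change -0.82), and Psat1, an enzyme of serine synthesis (-0.45). Asns, asparagine synthetase and a widely used marker of the response, did not pass (22.2 ± 0.893 and 23.1 ± 1.17 FPKM, SD, n = 3, log2 fold change 0.056, adjusted p = 0.37, limma), although it did in limma voom on recovered reads (0.14, adjusted p = 0.046). Sesn2 and Psph did not pass either, with Sesn2 passing in limma voom (0.26), after quantile normalisation (0.22) and without cisplatin replicate 3 (0.22). Of the 8 that rose, Atf4, the factor of the response itself, changed by 0.92 (adjusted p = 1.5e-06, limma) and reached 2-fold in limma voom (1.01). Ddit3 (0.11, adjusted p = 0.024, limma) no longer passed without a trend, under a replicate block or without any of 4 of the 6 libraries (adjusted p between 0.053 and 0.074 in those fits).

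Promoters bear on this list because the factors of the amino acid response bind a composite element in their targets. A promoter window of 300 bases (250 before to 50 after the annotated start, RefSeq on GRCm38.p6) was given for 27 of the 36 genes, 13 cytosolic and 14 mitochondrial. No window of Cars, Hars, Lars, Nars, Rars, Vars, Wars, Hars2 or Pars2 was searched. The letters TTGCATCA or TTTCATCA, on either strand, were found in the windows of 5 cytosolic genes (Aars, Gars, Iars, Tars and Yars), in 0 of 14 mitochondrial windows and in 1.90% of all 32851 windows. All 5 of these genes rose (log2 fold change 0.18 to 0.53, median 0.29), and of the 8 other cytosolic genes with a window 2 rose, 2 fell and 4 did not pass (median 0.049), all at the deposited scaling (32.9% of all tested genes higher and 35.1% lower) and with no test made of the difference. With scaling to the Y-linked genes all 5 were negative. Stretches around the matches are shown because the count of 5 genes rests on them, with the match in capitals and each read along its gene's strand. In Yars the letters stand on the opposite strand and read TGATGCAA. A match is a description of letters, not of binding, and no match in these windows overlapped one of the other motifs searched.
Aars upstream, chr8:111033690-111033777, plus strand: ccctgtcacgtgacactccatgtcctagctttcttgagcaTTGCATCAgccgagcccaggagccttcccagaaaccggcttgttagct
Aars at the start, chr8:111033811-111033891, plus strand: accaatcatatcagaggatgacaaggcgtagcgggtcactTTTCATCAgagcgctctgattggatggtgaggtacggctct
Gars, chr6:55037931-55038018, plus strand: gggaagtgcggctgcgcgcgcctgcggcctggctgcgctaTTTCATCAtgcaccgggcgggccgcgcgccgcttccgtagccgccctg
Iars, chr13:49682097-49682179, plus strand: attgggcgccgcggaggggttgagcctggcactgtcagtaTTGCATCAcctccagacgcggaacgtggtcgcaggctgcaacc
Tars, chr15:11399626-11399713, minus strand: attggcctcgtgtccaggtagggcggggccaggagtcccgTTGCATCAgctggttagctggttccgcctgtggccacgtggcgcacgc
Yars, chr4:129189866-129189952, plus strand: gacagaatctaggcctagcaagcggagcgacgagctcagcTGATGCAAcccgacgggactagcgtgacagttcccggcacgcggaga

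Counted from 1 at the annotated start, with negative positions before it, the match began at -112 and at 10 in the stretches of Aars, at -30 in Gars, at 8 in Iars, at -15 in Tars and at 4 in Yars. The other motifs searched were found in fewer of the 27 genes with a window. GAAANNGAA, the core of the interferon-stimulated response element, was found only in the Qars window (3.70% of these genes, beside 8.56% of all windows). TTCNNNGAA, the STAT motif, was found in the windows of Aars, Kars and Nars2 (11.1% of these genes, beside 8.30% of all windows).

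Wars is known as the synthetase induced by interferon gamma, and it was set beside the interferon-inducible genes for that reason. Wars stood at 24.4, 24.2 and 22.9 FPKM with PBS and at 27.1, 27.9 and 28.9 FPKM with cisplatin, with no overlap. Its log2 fold change was 0.22 (adjusted p = 0.0029, limma; SE 0.043). With scaling to the Y-linked genes it fell (-0.74). All 13 tested genes of the interferon-inducible list fell, 12 of them past both thresholds, beside 35.1% and 11.3% of all tested genes (median log2 fold change -3.06). Examples are Ifit3 (263 ± 9.18 to 17.7 ± 1.93 FPKM, SD, n = 3, log2 fold change -3.82) and Gbp2, a guanylate-binding protein (275 ± 11.6 to 22.5 ± 1.51 FPKM, -3.56). The change of Wars lay above that of each of the 13.

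Genes that work beside the synthetases showed changes of similar size. Of 11 aminoacylation partners 9 were tested, and 5 rose and 1, Gatc, fell, beside 32.9% of all tested genes higher and 35.1% lower (median log2 fold change 0.24, and -0.57 with scaling to the Y-linked genes). Among the 5, Sepsecs (0.24) no longer passed with no filter (adjusted p = 0.082, limma) or under the replicate block (adjusted p = 0.065, limma). Nor did it pass without any of 5 of the 6 libraries (adjusted p between 0.061 and 0.11 in those fits). The largest rises were in Qrsl1, a subunit of the mitochondrial amidase that makes glutaminyl-tRNA (2.42 ± 0.339 to 4.52 ± 0.0429 FPKM, SD, n = 3, log2 fold change 0.70), and Xpot, which exports tRNA from the nucleus (18.6 ± 0.380 to 30.5 ± 0.299 FPKM, 0.69). Gatb, another subunit of that amidase, rose (0.46) while Gatc, the remaining one, fell (-0.19), a fall that did not pass in limma voom (-0.12, adjusted p = 0.22). Of 8 elongation factors, which bring charged tRNA to the ribosome and move it along, 5 rose and 1 fell beside the same shares of all genes (median 0.15, and -0.83 with scaling to the Y-linked genes). The mitochondrial factors Gfm1 (0.42) and Tsfm (0.35) led the rises, and Eef1a1, the cytosolic carrier of charged tRNA, fell from 2129 ± 51.5 to 1747 ± 50.5 FPKM (SD, n = 3, log2 fold change -0.29). Neither the fall of Eef1a1 (adjusted p = 0.11, limma) nor the rise of Tsfm (adjusted p = 0.079, limma) passed with no filter on low values, and that of Tsfm also failed to pass without PBS replicate 1, PBS replicate 2, cisplatin replicate 2 or cisplatin replicate 3 (adjusted p between 0.052 and 0.097 in those fits). Tufm did not pass without PBS replicate 3 or cisplatin replicate 2 (adjusted p = 0.051 and 0.053, limma), nor Eef1g after quantile normalisation (adjusted p = 0.15). Eef1d and Eef2, which did not pass here, did in limma voom. Eef1d also passed after quantile normalisation and without cisplatin replicate 1 (adjusted p = 0.042 and 0.038, limma).

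**Figure D5:**
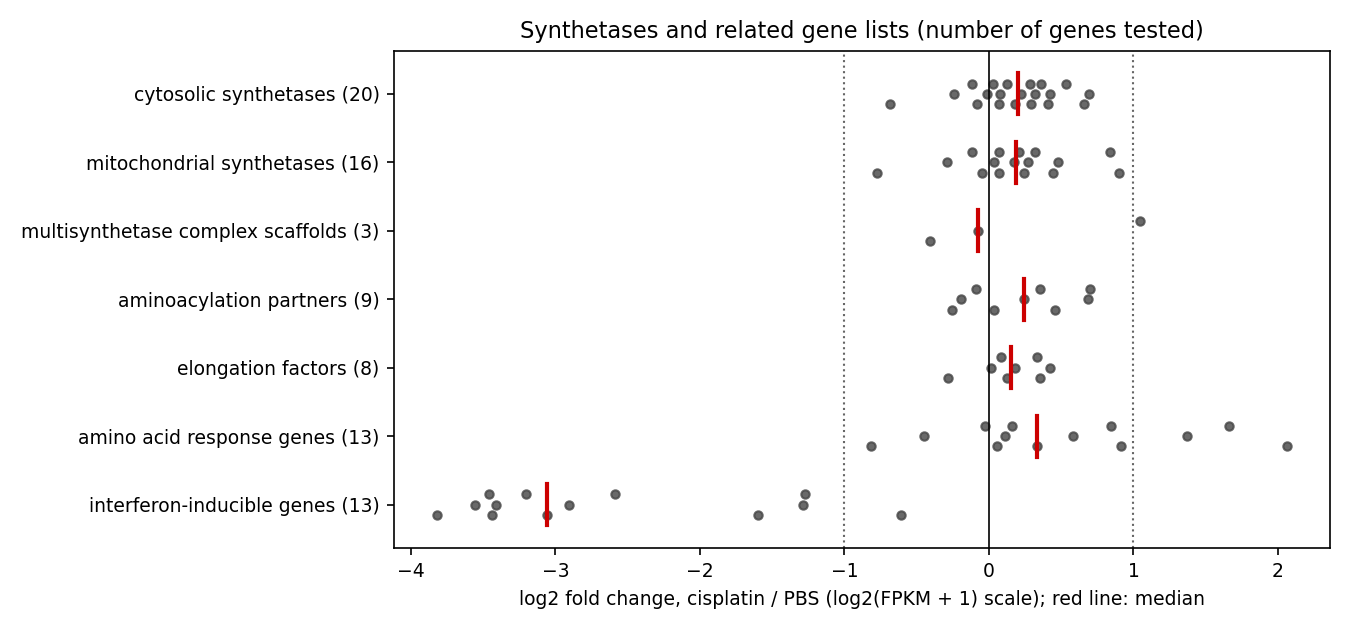
Log2 fold change (cisplatin against PBS, log2(FPKM + 1) scale) of each tested synthetase and of each tested gene of 5 related lists, with the number tested in brackets, red lines at the medians and dotted lines at 2-fold. The medians run from -3.06 for interferon-inducible genes to 0.33 for amino acid response genes, and with scaling to Y-linked genes those of both synthetase groups fall to -0.77 and -0.59.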

How the data were processed

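The deposited table holds FPKM for 54532 genes in each of 6 libraries, 3 per group by their labels. Per their methods, the authors aligned reads and counted them per gene with LifeScope and tested with DESeq2 at an adjusted p under 0.05 and a 2-fold change. The submitters' processing notes name fastp, HISAT2 2.0.5, featureCounts 1.5.0-p3 and mm10 instead, and strand in counting is not given in the sources used here. The table's gene length column was used to recover reads. With values worth under 200 reads, 100% came out whole (within 0.1 of a whole number).

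FPKM are not counts and were tested as log2(FPKM + 1) in limma 3.58.1 (R 4.3.3, lmFit and eBayes with a trend, group as the only term) over the 13441 genes with at least 1 FPKM in at least 3 libraries, with Benjamini-Hochberg adjustment. A second, stricter rule added the 2-fold change. The authors' methods call the replicates biological, without saying whether those of a group came from separate cultures or animals, and p-values measure the spread between these libraries. The synthetases and the lists were chosen with earlier results of these data known. All 36 are accounted for, and values of each library are given for the 3 largest changes in each direction per compartment at an adjusted p under 0.05 and, for its own comparison, for Wars. Of each related list the 2 largest such changes are named, and others where a count of 5 or fewer is spelled out or where their values were seen first, as with Asns and Gatb. Of the 36 genes, 33 have the coordinates of GENCODE M21, and 13 share exon bases with another gene. Motif counts were made with Python 3.11.15 and pandas 2.3.3. The fit was tested on simulated data with known changes, all of more than 2-fold, so that test does not bear on calls of smaller changes.

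As alternatives, each library was left out in turn, the replicate number entered as a block, the filter was dropped or raised to 5 FPKM, and the pseudocount was lowered to 0.1. Libraries were also scaled by quantiles, to TPM, by median of ratios or to 4 Y-linked genes, and limma was run untrended or as voom on recovered reads.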

Additional observations from a re-analysis of the deposited data

How the results depend on the processing

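Over 36 genes and 16 alternatives, 567 fold changes were computed, of which 503 kept their direction and side of the adjusted p threshold, 14 passed it newly, 15 no longer passed and 35 changed sign. Of the sign changes 26 came from scaling to the Y-linked genes, under which the median of all tested genes was -0.83. The counts there were 4 cytosolic and 2 mitochondrial genes called lower past both thresholds (38.5% of all tested genes), 0 and 0 higher and 20 and 13 lower at the adjusted p alone, with medians of -0.77 and -0.59, and list medians of -0.57 (aminoacylation partners), -0.83 (elongation factors) and -0.50 (amino acid response genes). Single values were Aars -0.43, Eprs -0.87, Farsa -0.24, Farsb -0.53, Gars -0.80, Hars -0.31, Iars -0.60, Kars -0.94, Lars -0.64, Mars -0.84, Nars -0.58, Rars -0.89, Tars -0.66, Wars -0.74, Yars -0.64, Aars2 -0.71, Cars2 -0.66, Ears2 -0.37, Fars2 -0.50, Hars2 -0.60, Lars2 -0.011, Rars2 -0.81, Sars2 -0.25, Tars2 -0.59, Wars2 -0.26 and Yars2 -0.41. Relative to the median of all genes under that scaling, Farsa lay at 0.59, Lars2 at 0.82, Mars2 at 1.002, Dars at -0.82 and Vars2 at -0.72. The cause was not tested.

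Quantile normalisation gave medians of 0.26 (cytosolic) and 0.31 (mitochondrial), a scaffold median of 0.028, Qars at 0.033 and Pars2 at 0.088. In limma voom the medians were 0.29 and 0.36, and Qars was at 0.076 and Pars2 at 0.0044. There 2 mitochondrial genes (Lars2 and Mars2) were called higher, beside 9.13% of all tested genes. With a pseudocount of 0.1 and with TPM rescaling, 1 mitochondrial gene (Mars2) was called higher, beside 7.24% and 6.50% of all tested genes. The mitochondrial medians were 0.27 and 0.24. A filter at 5 FPKM left Hars2, Iars2, Lars2, Rars2, Tars2, Vars2 and Yars2 as the mitochondrial genes tested (median 0.24). Of these, 4 were higher and 2 lower at the adjusted p alone, beside 38.6% and 38.0% of all genes tested there. Fewer mitochondrial genes were higher than without that filter, since it tests fewer genes.

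With each library left out, the cytosolic median ran from 0.19 to 0.22, the mitochondrial median from 0.14 to 0.22, and mitochondrial genes called higher from 0 to 1 (Lars2 without PBS replicate 3, beside 4.84% of all tested genes). Values near 0 changed sign between these fits: Qars ran from -0.027 to 0.016 (higher only without PBS replicate 3 or cisplatin replicate 1), Pars2 from -0.094 to 0.0024 (higher only without cisplatin replicate 1), Cars2 from -0.013 to 0.12 (lower only without PBS replicate 2) and Aars2 from -0.0065 to 0.098 (lower only without cisplatin replicate 2). Under the replicate block, Sars no longer passed (adjusted p = 0.081, limma) and the other 35 genes were on the same side of the threshold. Deviations of same-numbered libraries over all tested genes correlated at -0.10, -0.086 and -0.024, so no pairing by number was seen. Correlations over all genes cannot exclude that same-numbered libraries shared a culture, animal or batch.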
